A study of Mus musculus with 4 samples.

Results

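A set of 7 genes used as markers of parietal or primitive endoderm were examined in mouse embryonic stem (ES) cells deficient in Smg6 and in wild-type ES cells. The genes, Pdgfra, Pth1r, Stra6, Cxcr4, Thbd, Plat and Srgn, were taken by symbol from the 37224 Ensembl genes of the deposited tables, and each matched 1 identifier. RNA-seq libraries came from 2 groups of ES cells labelled as derived from embryo: 2 libraries with the genotype Smg6 deficient and 2 with the genotype wild type. The Smg6 protein cuts mRNAs that nonsense-mediated decay has selected because translation ends too early on them. The labels name no allele, strain or treatment, nor do they state that the libraries of 1 genotype are separate cultures or lines. The p-values therefore measure only library-to-library spread, part or all of which may be technical. The design sets the transcriptome of cells lacking normal Smg6 function against that of normal cells.

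Primitive endoderm is the layer of the blastocyst that lines the cavity and gives rise to the visceral and parietal endoderm of the yolk sacs. Parietal endoderm cells migrate along the inner face of the trophoblast and lay down Reichert's membrane, a thick basement membrane of laminin and type IV collagen. In mouse embryonal carcinoma cells, retinoic acid and cyclic AMP drive differentiation to parietal endoderm, which secretes tissue plasminogen activator and carries thrombomodulin. The markers fall into several roles. Pdgfra, Pth1r and Cxcr4 encode receptors for secreted ligands, and Stra6 encodes the cell-surface receptor that takes up retinol. Thbd encodes thrombomodulin, a surface protein of the anticoagulant protein C pathway, Plat encodes tissue plasminogen activator, a secreted protease, and Srgn encodes serglycin, a proteoglycan of secretory granules. Plat and Srgn products are thus secreted or stored rather than anchored at the surface.

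Count totals were 155391181 and 137937779 in the Smg6-deficient libraries and 137643993 and 130888768 in the wild-type libraries. Levels are given as CPM, the usual depth-scaled count unit, computed here with library sizes corrected by TMM (edgeR's trimmed mean of M-values), or as the RPKM values that the authors deposited, which are also scaled by gene length. A positive log2 fold change means a higher level in Smg6-deficient cells. Tests used the quasi-likelihood method of edgeR, with p-values adjusted after Benjamini and Hochberg over 20895 genes and a threshold of 0.05. Smg6 itself had 13366 and 11642 counts in Smg6-deficient libraries and 13396 and 14071 in wild-type libraries (log2 fold change -0.21, SE 0.083, edgeR adjusted p = 0.089). The tables give 1 value for each gene, in which a partial deletion can go unseen, and the genotype labels are therefore unchecked by these values.

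The markers did not move as 1 group. Of the 7, all of which passed the filter on low counts, 5 passed as higher and 0 as lower with Smg6 deficiency, against 20.5% of all tested genes called higher and 19.2% called lower. Pdgfra, Pth1r, Stra6 and Srgn rose between 4.77-fold and 13.1-fold. These are 4 of 7 markers called at least 2-fold higher, against 5.42% of all tested genes. The markers were chosen with earlier results of these data known, so these shares describe them and are not independent support. Plat rose by a small step of 1.36-fold, and Thbd and Cxcr4 did not pass. Before adjustment 1 marker, Cxcr4, was below 0.05 and lower, and the DESeq2 Wald test called 0 markers lower. The median log2 fold change of the 7 was 2.26, against 0.0080 over all tested genes.

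**Figure D1:**
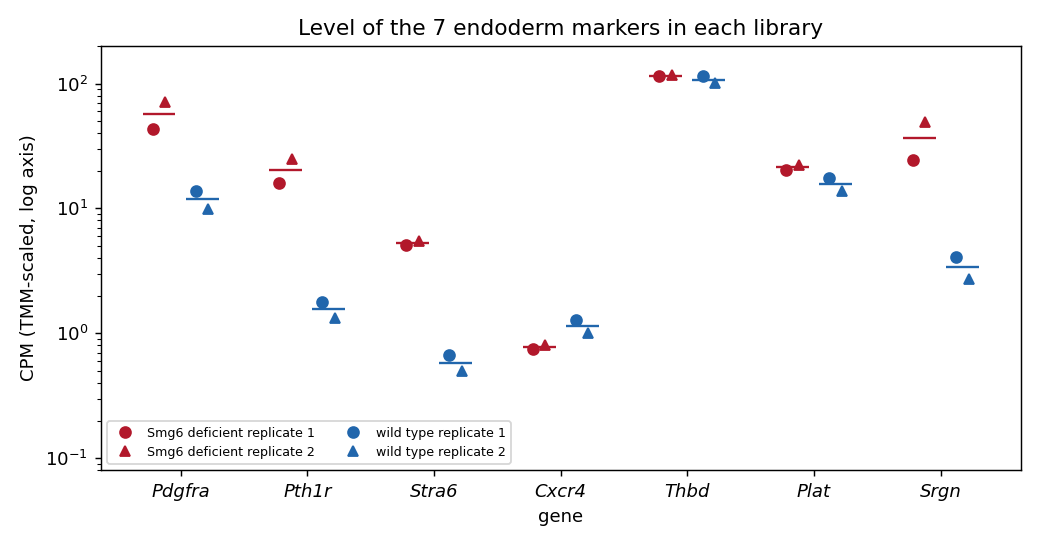
CPM of each marker (log axis) in the Smg6-deficient libraries (red) and the wild-type libraries (blue), with circles for replicate 1, triangles for replicate 2 and bars at the mean of 2 libraries. Pdgfra, Pth1r, Stra6 and Srgn lie well apart between genotypes, whereas Thbd stands near 100 to 117 CPM in all 4 libraries.

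The order of the markers by level differed between genotypes. In Smg6-deficient cells Thbd was highest at 26.0 ± 0.48 RPKM (SD, n = 2), followed by Srgn at 13.8 ± 6.0 RPKM. Plat at 7.01 ± 0.21, Pdgfra at 7.0 ± 2.15 and Pth1r at 6.80 ± 1.86 RPKM came next and overlapped each other between libraries, while Stra6 at 0.75 ± 0.014 and Cxcr4 at 0.36 ± 0.0071 RPKM were lowest. In wild-type cells Thbd again led at 24.9 ± 3.34 RPKM, with Plat second at 5.33 ± 1.11 RPKM. Pdgfra at 1.53 ± 0.42 and Srgn at 1.35 ± 0.44 RPKM overlapped between libraries, as did Cxcr4 at 0.55 ± 0.11 and Pth1r at 0.54 ± 0.14 RPKM, and Stra6 was lowest at 0.085 ± 0.021 RPKM. Thbd in the wild-type libraries lay at the 87.6 and 86.2 percentile of RPKM over tested genes. Srgn stood at the 70.3 and 82.8 percentile in the Smg6-deficient libraries, against the 41.8 and 35.9 percentile in the wild-type libraries. In bulk RNA, more cells of a type and more RNA per cell cannot be told apart for any of these genes.

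Promoter sequences of the 4 markers that rose at least 2-fold are shown because these markers carry the large difference between genotypes. They come from the RefSeq table for GRCm38.p6, which holds 11 promoters of 5 of the 7 markers, each 300 bases long from 250 before to 50 after a transcription start. For each gene the promoter nearest to the start of the principal GENCODE transcript is given, 5′ to 3′ on the strand of the gene, with CG dinucleotides in capitals. Pdgfra lies at chr5:75152001-75152300 on the plus strand, Pth1r at chr9:110743637-110743936 on the minus strand, Stra6 at chr9:58128838-58129137 on the plus strand and Srgn at chr10:62507708-62508007 on the minus strand.
Pdgfra: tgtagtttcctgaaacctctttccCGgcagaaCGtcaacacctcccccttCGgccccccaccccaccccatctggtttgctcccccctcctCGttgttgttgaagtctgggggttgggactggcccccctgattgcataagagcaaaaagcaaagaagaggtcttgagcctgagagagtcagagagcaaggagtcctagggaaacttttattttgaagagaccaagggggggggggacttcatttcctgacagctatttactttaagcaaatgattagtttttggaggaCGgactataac
Pth1r: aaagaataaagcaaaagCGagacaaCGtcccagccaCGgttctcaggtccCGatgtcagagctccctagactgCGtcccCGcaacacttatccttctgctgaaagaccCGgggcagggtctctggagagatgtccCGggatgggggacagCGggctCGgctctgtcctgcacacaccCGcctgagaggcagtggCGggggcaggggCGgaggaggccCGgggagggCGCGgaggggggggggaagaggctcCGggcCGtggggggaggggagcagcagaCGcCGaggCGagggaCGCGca
Stra6: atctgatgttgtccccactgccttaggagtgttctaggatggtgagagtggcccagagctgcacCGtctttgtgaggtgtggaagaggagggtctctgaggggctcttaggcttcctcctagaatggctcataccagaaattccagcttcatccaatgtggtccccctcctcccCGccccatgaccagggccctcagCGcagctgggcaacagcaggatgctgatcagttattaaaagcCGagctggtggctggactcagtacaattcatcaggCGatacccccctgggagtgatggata
Srgn: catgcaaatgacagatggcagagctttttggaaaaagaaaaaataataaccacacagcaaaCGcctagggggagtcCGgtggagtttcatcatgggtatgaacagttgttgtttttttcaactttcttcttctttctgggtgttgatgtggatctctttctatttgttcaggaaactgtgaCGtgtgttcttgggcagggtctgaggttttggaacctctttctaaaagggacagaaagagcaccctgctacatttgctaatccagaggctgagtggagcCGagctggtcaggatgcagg

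The 4 promoters were of different composition. That of Pth1r held 23 CG dinucleotides, more than 78.5% of the 32851 promoters in the table, whose median was 7. Those of Pdgfra and Stra6 held 5 each and that of Srgn held 4. Both strands were searched for letters that GATA factors read, AGATAA or the similar form TGATAA, for letters that SOX factors read, ACAATG or the similar form ACAAAG, and for the nuclear receptor half-site AGGTCA. Of these 4 promoters, that of Stra6 held 1 match, to the second SOX form on the opposite strand with its first base at position -183 from the start, and those of Pdgfra, Pth1r and Srgn held 0. Among the promoters of the markers that are not printed, another of Stra6 held AGATAA and ACAAAG once each and another of Pth1r held ACAAAG once. Among all promoters in the table, 18.6% held a GATA form, 28.6% held a SOX form and 16.3% held the half-site.

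Pdgfra, the receptor tyrosine kinase for PDGF-A and a widely used marker of primitive endoderm (ENSMUSG00000029231; GRCm38 chromosome 5, 75152292 to 75198215, plus strand, up to 23 exons), stood at 43.1 and 70.6 CPM in the Smg6-deficient libraries and at 13.9 and 9.92 CPM in the wild-type libraries. Both Smg6-deficient libraries were above both wild-type libraries, and replicate 2 was 1.64 times replicate 1 among the Smg6-deficient ones. Gm42802 and Gm42803 (opposite strand) and Mir7025 (same strand) overlap Pdgfra, and no counts of these 3 genes are given here. Pdgfra rose by a log2 fold change of 2.26 (SE 0.26, edgeR adjusted p = 0.0012). None of its listed ligand genes passed as higher. Pdgfa, the main ligand, stood at 61.3 and 58.9 CPM in Smg6-deficient and 68.3 and 54.8 CPM in wild-type libraries (log2 fold change -0.03, edgeR adjusted p = 0.84), and without Smg6-deficient replicate 2 or wild-type replicate 1 its sign was positive. Pdgfb had a log2 fold change of -0.02 (edgeR adjusted p = 0.90), also with a positive sign without Smg6-deficient replicate 2 or wild-type replicate 2. Pdgfc, another ligand of the receptor, fell by 0.64 on the log2 scale (SE 0.15, edgeR adjusted p = 0.016), but was not called in limma-trend on RPKM (limma-trend adjusted p = 0.067 and 0.066 with pseudocounts of 1 and 0.1).

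Of 7 listed genes of the PDGF ligands and related receptors, 1 rose and 2 fell, with a median log2 fold change of -0.021. Pdgfrb, the receptor for PDGF-B, was the one that rose, by 0.56 (SE 0.18, edgeR adjusted p = 0.044), and was no longer called with Smg6-deficient replicate 1 left out (0.55, edgeR adjusted p = 0.065), with library size alone (0.50, 0.061), with no filter (0.56, 0.068) or in limma-trend on RPKM (limma-trend adjusted p = 0.16 with either pseudocount). Kit, the stem cell factor receptor whose gene neighbours Pdgfra in mammals, fell to 41.9 and 44.4 CPM in the Smg6-deficient libraries, against 112.9 and 99.2 CPM in the wild-type libraries (log2 fold change -1.30, SE 0.095, edgeR adjusted p = 0.00029). Pdgfra and Kit, both receptor tyrosine kinases of the same class, thus differed in direction.

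Pth1r encodes the G protein-coupled receptor for parathyroid hormone and its related peptide, which acts on parietal endoderm differentiation in mouse (ENSMUSG00000032492; chromosome 9, 110722085 to 110747145, minus strand, up to 16 exons). It stood at 15.9 and 24.8 CPM in the Smg6-deficient libraries and at 1.79 and 1.32 CPM in the wild-type libraries. The groups did not overlap, and the lower Smg6-deficient library was several times the higher wild-type library. The log2 fold change was 3.71 or 13.1-fold (SE 0.26, edgeR adjusted p = 0.00028), the largest of the 7 by edgeR, whereas limma-trend on log2(RPKM + 1) gave 2.32 for Pth1r and 2.61 for Srgn. Myl3, a myosin light chain gene, overlaps Pth1r on the opposite strand, and the library kit did not mark strand. Myl3 had 60 and 38 counts in Smg6-deficient and 13 and 24 counts in wild-type libraries, against 2424 and 3347 in Smg6-deficient and 250 and 176 in wild-type libraries for Pth1r.

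The ligand gene Pthlh, encoding the parathyroid hormone-related peptide, was near the limit of detection, at 0.10 and 0.16 CPM in Smg6-deficient and 0.10 and 0.060 CPM in wild-type libraries (log2 fold change 0.69, SE 0.46, edgeR adjusted p = 0.27). The parathyroid hormone axis held 10 tested genes, of which 1 rose and 3 fell, with a median log2 fold change of 0.013. Adcy6, an adenylate cyclase that makes cyclic AMP, rose by 0.62 (SE 0.099, edgeR adjusted p = 0.0037). Prkaca, a catalytic subunit of the cyclic AMP-dependent kinase, fell by 0.55 on the log2 scale, the cyclase gene Adcy9 fell by 0.59 and the regulatory subunit gene Prkar1a fell by 0.25. The calls of Adcy9 (edgeR adjusted p = 0.077 and 0.12) and Prkar1a (0.30 and 0.31) were lost without Smg6-deficient replicate 1 and without Smg6-deficient replicate 2, in that order. Limma-trend on RPKM with a pseudocount of 0.1 called neither (limma-trend adjusted p = 0.061 and 0.069), and that of Prkar1a also ended with a pseudocount of 1 (0.066) and with no filter (edgeR adjusted p = 0.074).

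Stra6, named for its induction by retinoic acid, encodes the receptor for the plasma carrier retinol-binding protein (ENSMUSG00000032327; chromosome 9, 58063788 to 58153996, plus strand, up to 19 exons). It stood at 5.05 and 5.45 CPM in the Smg6-deficient libraries and at 0.66 and 0.50 CPM in the wild-type libraries. The groups were far apart and the Smg6-deficient libraries were close to each other, at a ratio of 1.08 for replicate 2 over replicate 1. The log2 fold change was 3.17 or 8.99-fold (SE 0.20, edgeR adjusted p = 0.00023). The wild-type level rests on 93 and 67 counts. Ccdc33, on the opposite strand of the same locus, had 29 and 20 counts in Smg6-deficient and 25 and 32 counts in wild-type libraries. On log2(RPKM + 1), where a low gene is compressed, the log2 fold change was 0.69 (limma-trend adjusted p = 0.0046).

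Genes of retinoid uptake, metabolism and response were split. Of 19 tested, 6 rose and 7 fell, with a median log2 fold change of 0.13. Cyp26a1, the enzyme that breaks down retinoic acid and is itself induced by it, rose to 5.52 and 7.30 CPM in Smg6-deficient libraries, against 1.21 and 0.96 CPM in wild-type libraries (log2 fold change 2.57, SE 0.21, edgeR adjusted p = 0.00041). Rarg, a retinoic acid receptor, rose by 1.35 (SE 0.082, edgeR adjusted p = 0.00021). Stra8, another gene named for induction by retinoic acid and known for its part in meiotic entry, fell by 1.49 on the log2 scale (SE 0.17, edgeR adjusted p = 0.0011), and Aldh1a2, which makes retinoic acid, fell by 1.41. The direct partners of Stra6 were lower. Lrat, which esterifies the retinol taken up, fell to 0.14 and 0.10 CPM in Smg6-deficient libraries, against 0.71 and 0.69 CPM in wild-type libraries (log2 fold change -2.51, edgeR adjusted p = 0.0013). Rbp4, the plasma carrier, fell by 0.89 on the log2 scale and lost its call without Smg6-deficient replicate 1 (-0.87, edgeR adjusted p = 0.055).

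Cxcr4, the receptor for the chemokine CXCL12 and in common use as a marker of definitive endoderm, was the lowest of the 7 by RPKM in Smg6-deficient cells (ENSMUSG00000045382; chromosome 1, 128588199 to 128592293, minus strand, up to 2 exons). It stood at 0.75 and 0.81 CPM in the Smg6-deficient libraries and at 1.28 and 1.01 CPM in the wild-type libraries. Both Smg6-deficient libraries were below both wild-type libraries, as in 35.9% of all tested genes, and the difference was small. With 109 to 179 counts per library, Cxcr4 had a log2 fold change of -0.56 (SE 0.23) and missed the threshold (edgeR adjusted p = 0.093). It passed without wild-type replicate 2 (-0.74, edgeR adjusted p = 0.024).

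Of 7 genes listed for the CXCL12 axis, 0 rose and 1 fell in the edgeR test, with a median log2 fold change of -0.065. Before adjustment 1 was below 0.05 and higher, and the DESeq2 Wald test called 1 higher, Cxcl12. The one that fell was Ackr3, the atypical receptor that scavenges CXCL12, at 5.60 and 4.84 CPM in Smg6-deficient libraries against 28.1 and 26.4 CPM in wild-type libraries (log2 fold change -2.38, SE 0.12, edgeR adjusted p = 0.00013). Cxcl12 itself stood at 7.01 and 5.19 CPM in Smg6-deficient and 4.37 and 2.45 CPM in wild-type libraries and did not pass (log2 fold change 0.84, SE 0.29, edgeR adjusted p = 0.057). It passed in the DESeq2 Wald test (0.83, DESeq2 adjusted p = 0.013), and by edgeR without Smg6-deficient replicate 2 (1.05, edgeR adjusted p = 0.010) or wild-type replicate 1 (1.33, edgeR adjusted p = 0.00084).

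Thbd, a single-exon gene (ENSMUSG00000074743; chromosome 2, 148404466 to 148408188, minus strand), was the most abundant marker in both genotypes. It stood at 114.1 and 117.3 CPM in the Smg6-deficient libraries and at 114.1 and 100.4 CPM in the wild-type libraries. Smg6-deficient replicate 1 and wild-type replicate 1 were level to the precision printed, so the groups were separated by less than that precision. The log2 fold change was 0.11 (SE 0.090, edgeR adjusted p = 0.37), at 13437 to 17414 counts per library. Without wild-type replicate 1 it passed, at 0.22 (edgeR adjusted p = 0.034), and without wild-type replicate 2 it was 0.00014 (edgeR adjusted p = 0.999).

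Of 14 tested genes of coagulation and the protein C pathway, 4 rose, 1 fell and 9 did not pass, against 20.5% of all tested genes called higher, and their median log2 fold change was 0.33. Procr, the protein C receptor that works beside thrombomodulin, rose to 9.83 and 14.1 CPM in Smg6-deficient libraries, against 4.70 and 4.69 CPM in wild-type libraries (log2 fold change 1.35, SE 0.19, edgeR adjusted p = 0.0022). F3, the tissue factor that starts coagulation, rose by 1.25 (SE 0.15, edgeR adjusted p = 0.0015). The protease-activated receptor genes F2rl1 and F2r, the second of which encodes the main thrombin receptor, rose by 1.02 and 0.95. For F2r the levels were 123.5 and 159.8 CPM in Smg6-deficient and 84.8 and 62.2 CPM in wild-type libraries.

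Plat (ENSMUSG00000031538; chromosome 8, 22757727 to 22782844, plus strand, up to 14 exons) stood at 20.3 and 22.3 CPM in the Smg6-deficient libraries and at 17.4 and 13.8 CPM in the wild-type libraries. Both Smg6-deficient libraries were above both wild-type libraries, as in 37.3% of all tested genes, by a margin smaller than the gap between the wild-type libraries. The log2 fold change of 0.45 (SE 0.14) passed narrowly (edgeR adjusted p = 0.038). Its call ended without Smg6-deficient replicate 2 (0.39, edgeR adjusted p = 0.16), without wild-type replicate 2 (0.27, 0.076), with library size alone (0.39, 0.056), with no filter on low counts (0.45, 0.063) and in limma-trend on log2(RPKM + 1) (0.35, limma-trend adjusted p = 0.14) or log2(RPKM + 0.1) (0.41, 0.13).

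Of 11 tested genes of plasminogen activation, 3 rose and 0 fell by edgeR, with a median log2 fold change of 0.31. The DESeq2 Wald test called 1 lower, the antiplasmin gene Serpinf2, named after its values were seen, which by edgeR was the 1 gene lower at an unadjusted p below 0.05 (log2 fold change -1.38, edgeR adjusted p = 0.058). Plaur, the receptor for urokinase, stood at 73.7 and 95.7 CPM in Smg6-deficient and 34.4 and 36.4 CPM in wild-type libraries (log2 fold change 1.26, SE 0.13, edgeR adjusted p = 0.00084). The urokinase gene Plau stood at 32.9 and 28.2 CPM in Smg6-deficient and 28.4 and 14.5 CPM in wild-type libraries and did not pass (0.51, SE 0.28, edgeR adjusted p = 0.20), although it did without wild-type replicate 1 (1.09, edgeR adjusted p = 0.00015). Serpini1, an inhibitor of tissue plasminogen activator, rose by 0.73 (SE 0.13, edgeR adjusted p = 0.0061).

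**Figure D2:**
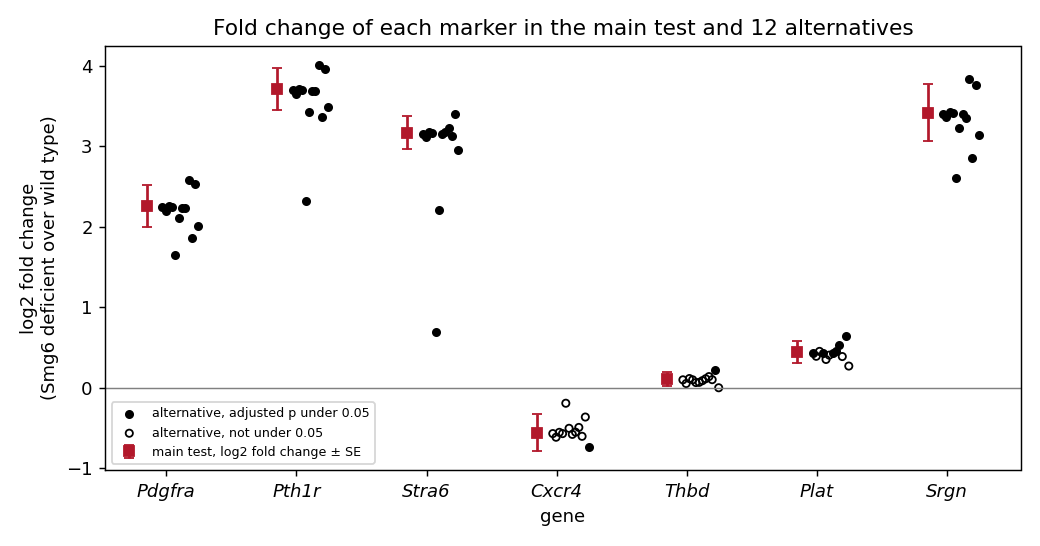
Log2 fold change of each marker (Smg6 deficient over wild type) in the main test (red square, bars are ± SE) and in 12 alternatives (circles, filled where the adjusted p is under 0.05). Pdgfra, Pth1r, Stra6 and Srgn are called in all 12, Plat in 6, and Thbd and Cxcr4 in 1 each.

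Srgn (ENSMUSG00000020077; chromosome 10, 62493833 to 62527451, minus strand, up to 4 exons) stood at 24.5 and 48.8 CPM in the Smg6-deficient libraries and at 4.11 and 2.74 CPM in the wild-type libraries. The groups did not overlap, but the Smg6-deficient libraries differed more from each other than for any other marker, with replicate 2 at 1.99 times replicate 1. The log2 fold change was 3.42 or 10.7-fold (SE 0.36, edgeR adjusted p = 0.00084). It was 7.21-fold without Smg6-deficient replicate 2 and 14.3-fold without Smg6-deficient replicate 1. Serglycin carries glycosaminoglycan chains, and of 19 tested genes that build such chains 9 rose and 2 fell, with a median log2 fold change of 0.45. Chst15, a chondroitin sulfotransferase, rose to 17.9 and 17.8 CPM in Smg6-deficient libraries, against 9.15 and 8.37 CPM in wild-type libraries (log2 fold change 1.03, SE 0.11, edgeR adjusted p = 0.00082). Chpf and Chpf2, factors of chondroitin polymerization, rose by 0.91 and 0.59, and Csgalnact2, which starts chondroitin chains, fell by 0.63 on the log2 scale.

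**Figure D3:**
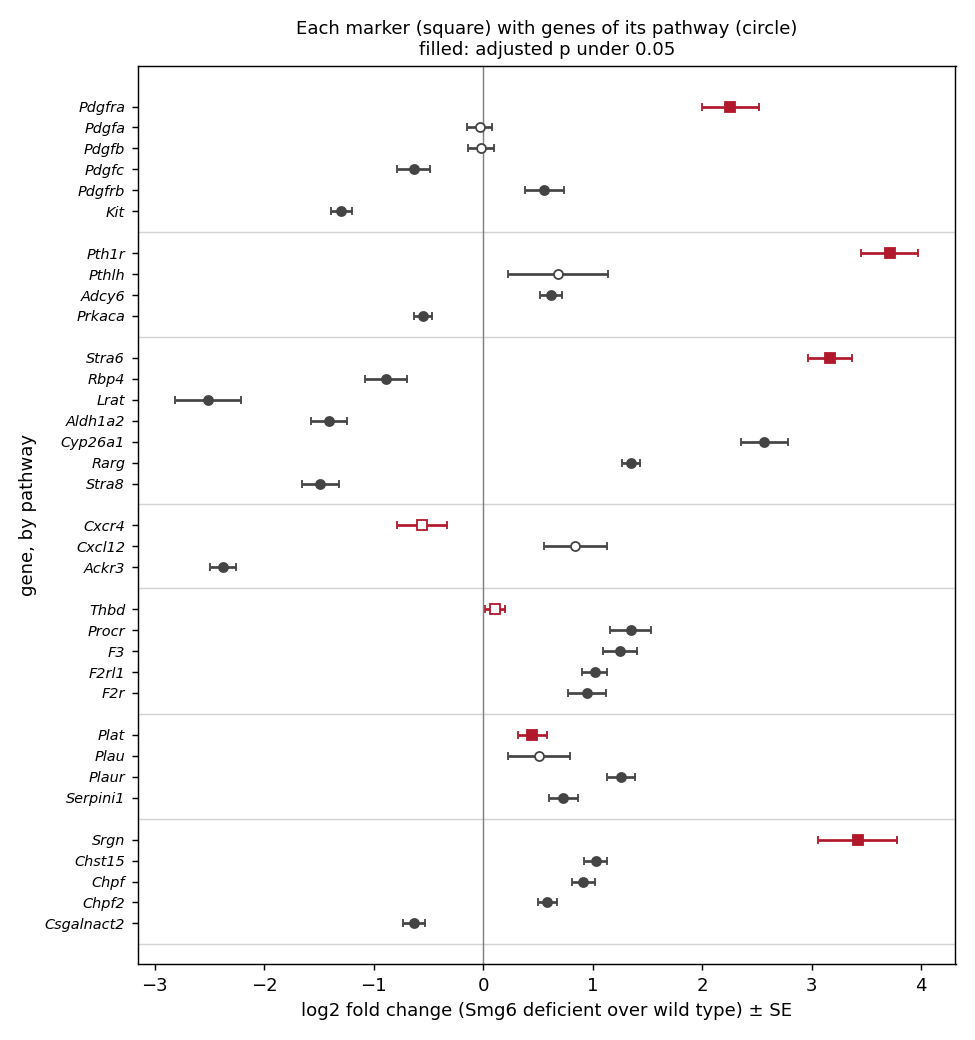
Log2 fold change (Smg6 deficient over wild type, bars are ± SE) of each marker (red square) and of named genes of its pathway (dark circle), filled where the edgeR adjusted p is under 0.05. Pdgfra, Pth1r and Stra6 lie far to the right of their ligands or carriers Pdgfa, Pthlh and Rbp4, whereas Thbd and Plat lie left of Procr and Plaur.

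Other endoderm genes were read beside the markers, in lists that were also chosen with earlier results of these data known. Of 12 genes listed as regulators or early markers of primitive endoderm, 11 rose and 1 fell, with a median log2 fold change of 2.78. Sox17 and Gata4, transcription factors of the lineage, rose by 4.49 and 3.97, and Lrp2, the endocytic receptor megalin, rose by 3.02. Of 13 genes listed for parietal endoderm, which exclude the 7 markers, 9 rose and 0 fell by edgeR, with a median of 0.93, and 0 were lower before adjustment or in the DESeq2 Wald test. The laminin chain genes Lama1 and Lamb1 rose by 3.62 and 1.51, and the type IV collagen genes Col4a1 and Col4a2 by 2.04 and 1.80. Over the whole primitive endoderm list the log2 fold changes ran from -0.63 for Cited1, the 1 gene that fell, to 4.49 for Sox17. All 7 markers lie in this range, but it is wide and also holds the median of all tested genes, 0.0080. A place within it therefore does not set a marker apart from unchanged genes. Over the whole parietal list the log2 fold changes ran from 0.087 for Krt19 to 3.62 for Lama1, with Cxcr4 below and Pth1r above that range.

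Visceral endoderm genes were divided as well, with 4 of 11 tested higher and 4 lower and a median log2 fold change of -0.32. Cubn, an endocytic receptor, and Amn, its partner, rose by 4.95 and 1.70, while Apoc2, an apolipoprotein gene, fell by 2.12 on the log2 scale. Of 9 tested genes of definitive endoderm and the anterior streak, the setting in which Cxcr4 is used as a marker, 4 rose and 2 fell, with a median of 0.28. The ones that rose with the smallest adjusted p were Sox17 and Foxa2, a forkhead factor, at 3.62, which stand in the primitive endoderm list too, as does Hhex, a homeobox factor, at 0.59, no longer called with either Smg6-deficient library left out (edgeR adjusted p = 0.066 for replicate 1 and 0.092 for replicate 2) or in limma-trend with a pseudocount of 0.1 (limma-trend adjusted p = 0.059). Eomes, a T-box factor of the streak, fell by 1.42 on the log2 scale.

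The Smg6-deficient libraries themselves differed in primitive and parietal endoderm genes, and some of the markers moved with them. Over the 12 primitive endoderm genes the median log2 ratio of Smg6-deficient replicate 2 over replicate 1 was 0.80, over the 13 parietal genes 0.33, over the tested visceral genes 0.062, over the tested definitive endoderm and streak genes 0.14, and over all tested genes -0.0082. Among the markers this log2 ratio was 0.99 for Srgn, 0.71 for Pdgfra and 0.64 for Pth1r. It was 0.14 for Plat, 0.11 for Stra6, 0.11 for Cxcr4 and 0.039 for Thbd. Stra6 therefore combined a large difference between genotypes with a small one between the Smg6-deficient libraries. In the wild-type libraries all 7 markers were lower in replicate 2, by log2 ratios from -0.18 for Thbd to -0.59 for Srgn. This was not particular to the markers. Summed levels in wild-type replicates 1 and 2 were 1172 and 872.5 CPM for the fibroblast markers read below, and 7138 and 6130 CPM for ES cell markers. They were 278.7 and 250.4 CPM for primitive and 3487 and 3230 CPM for parietal endoderm genes. Sums were near level for endothelial (203 and 204.2 CPM) and blood markers (143.2 and 144.2 CPM). Among single genes, Sox17 (-0.75), Col1a1 (-0.47), Nanog (-0.39) and Gata4 (-0.11) were lower in replicate 2, and Lrp2 (0.10) and Pecam1 (0.19) higher. The share of all tested genes lower in wild-type replicate 2 is not given here. What set these libraries apart was not tested.

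**Figure D4:**
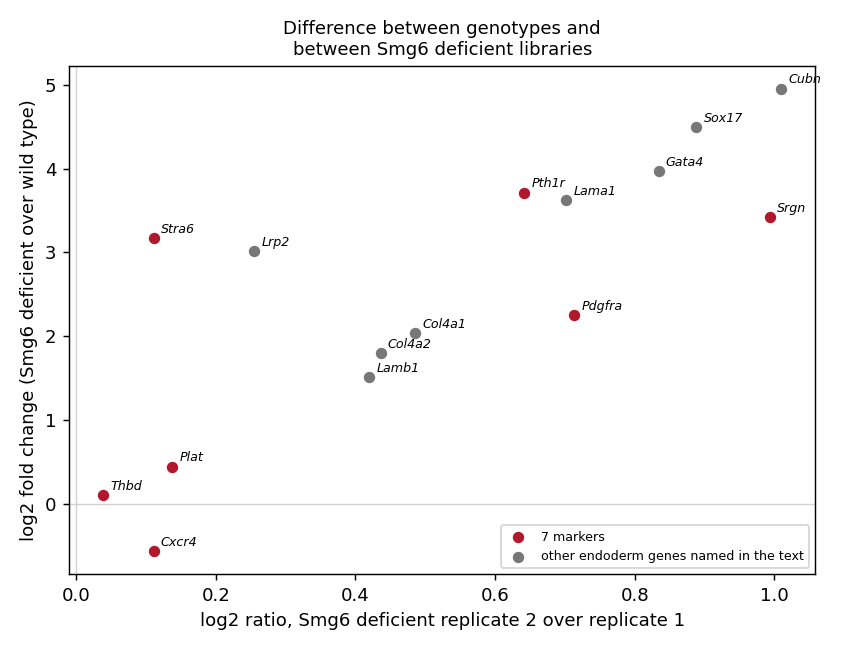
Log2 fold change between genotypes (vertical axis) against the log2 ratio of Smg6-deficient replicate 2 over replicate 1 (horizontal axis) for the 7 markers (red) and 8 other endoderm genes named in the text (grey). Srgn, Pdgfra and Pth1r lie to the right with Gata4, Sox17, Lama1 and Cubn, while Col4a1, Col4a2 and Lamb1 lie further left. Stra6 lies high on the left, with Lrp2 near it.

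The genes whose levels followed each marker most closely over the 4 libraries were found by the Euclidean distance between log2 CPM profiles centred on their own mean, among the 12212 genes whose log2 CPM averaged 2 or more. Lama1 was nearest to Pth1r (distance 0.16) and to Srgn (0.38), with Hs3st1, a heparan sulfate sulfotransferase gene, next for both (0.34 and 0.45). Car4, a carbonic anhydrase gene, and Ntn1, which encodes netrin, were nearest to Pdgfra (0.12 and 0.17). D130058E05Rik and Gbx2, a homeobox gene, were nearest to Stra6 (0.19 and 0.28). Thbd was closest to Atic and Vti1b, Plat to Cmtm3 and Ufsp2, and Cxcr4 to Dusp14 and Ier3, at distances from 0.016 to 0.040. With 4 libraries many genes share such a profile, and the distances are a description.

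Pdgfra is also used as a marker of fibroblasts and mesoderm, Thbd, Plat and Srgn of endothelium, and Srgn and Cxcr4 of blood cells, so markers of these types were read beside them. Of 15 fibroblast markers 3 rose and 0 fell by edgeR (0 were lower before adjustment or in the DESeq2 Wald test), with a summed level of 1309 to 1434 CPM in Smg6-deficient and 872.5 to 1172 CPM in wild-type libraries. Col1a1 rose by 0.49 (edgeR adjusted p = 0.049) and was not called without Smg6-deficient replicate 1 (0.41, edgeR adjusted p = 0.12), nor with DESeq2 size factors (0.054), library size alone (0.070), no filter (0.071), autosomal genes only (0.055) or limma-trend on RPKM (limma-trend adjusted p = 0.18 with either pseudocount). Col1a2 and Col3a1 had log2 fold changes of 0.37 and 0.47 (edgeR adjusted p = 0.065 and 0.0501), and both passed in the DESeq2 Wald test (DESeq2 adjusted p = 0.044 and 0.021). Fbn1, which encodes fibrillin, rose by 0.73. Of 12 tested endothelial markers 7 rose and 4 fell, against 20.5% of all tested genes called higher and 19.2% called lower. Their log2 fold changes ran from -1.29 to 2.85, with a median of 0.84, against 0.93 for the parietal list. The summed level of the endothelial markers was 166.3 to 170 CPM in Smg6-deficient and 203 to 204.2 CPM in wild-type libraries. Pecam1 was the most abundant of them, and without it the sum was 101.5 to 105.7 CPM in Smg6-deficient and 64.3 to 80.6 CPM in wild-type libraries, the opposite direction. Among the defining ones Cdh5, the endothelial cadherin, stood at 0.96 and 1.63 CPM in Smg6-deficient against 0.28 and 0.17 CPM in wild-type libraries (log2 fold change 2.51), Pecam1, which ES cells also express, fell by 1.02 on the log2 scale, and Tek had 0.14 (edgeR adjusted p = 0.49; -0.05 without wild-type replicate 2).

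Of 10 tested blood markers 2 rose and 3 fell, with a summed level of 125.4 to 126.8 CPM in Smg6-deficient and 143.2 to 144.2 CPM in wild-type libraries. Without Laptm5, the most abundant, the sums overlapped, at 52.0 to 55.3 CPM in Smg6-deficient and 53.3 to 55.6 CPM in wild-type libraries. The pan-leukocyte gene Ptprc stood at 0.18 and 0.22 CPM in Smg6-deficient and 0.25 and 0.16 CPM in wild-type libraries, and the globin gene Hbb-bt had 0 counts in all 4. Of 10 tested mesoderm markers 5 rose and 2 fell, with a median log2 fold change of 0.805 and with T, the brachyury gene, at 1.20. Summed, the mesoderm markers stood at 30.8 to 35.9 CPM in Smg6-deficient and 14.8 to 18.9 CPM in wild-type libraries. The DESeq2 Wald test called 4 of these higher and 0 lower. Mesp1, with 2 and 2 counts in Smg6-deficient and 10 and 10 in wild-type libraries, and Fgf8 were the ones lower by edgeR (DESeq2 adjusted p = 0.19 and 0.062). Of 9 tested trophoblast markers 2 rose and 4 fell (89.2 to 111.1 CPM summed in Smg6-deficient and 115 to 167.1 CPM in wild-type libraries), and without Tfap2c, the most abundant, the sums overlapped, at 24.8 to 27.8 CPM in Smg6-deficient and 20.7 to 28.3 CPM in wild-type libraries. The 15 ES cell markers were expressed in every library, with 2 higher and 10 lower and a summed level of 4480 to 4530 CPM in Smg6-deficient and 6130 to 7138 CPM in wild-type libraries. Pou5f1, a core pluripotency factor, stood at 631.9 and 632.9 CPM in Smg6-deficient and 936.4 and 845.5 CPM in wild-type libraries (log2 fold change -0.49, edgeR adjusted p = 0.0062, but limma-trend adjusted p = 0.063 on RPKM). No gene of these 6 lists other than Hbb-bt was at 0 in all libraries. Median log2 fold changes were -0.158 for the blood, -0.658 for the trophoblast and -0.525 for the ES cell markers. Over all tested genes 20.5% were called higher and 19.2% lower, with a median of 0.0080. The part of cells of these types in the marker changes was not tested.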

How the data were processed

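Gene-level RNA-seq values of 4 mouse ES cell libraries were used, 2 per genotype. The submitters' processing notes name TopHat2 2.0.9 and the mouse build mm10. How reads were assigned to genes, with which annotation and strand setting, is not given in the sources used here. The authors deposited whole-number read counts and RPKM values for 37224 Ensembl genes, and the TruSeq v2 kit named in the labels does not mark strand. Symbols and positions came from GENCODE M21 (GRCm38), with a symbol for 35449 identifiers.

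The quasi-likelihood F test of edgeR 4.0.16 (R 4.3.3) was run on the counts of the 20895 genes that passed filterByExpr at a minimum count of 10, after TMM scaling and with genotype as the sole term. An SE is the size of the log2 fold change over the root of its F statistic, and the fit had 2 residual degrees of freedom before moderation. Libraries of 1 genotype differed beyond counting error, with a chi-square of 32.1 (Smg6 deficient) and 56.7 (wild type) for each degree of freedom. Deposited RPKM values served for levels between genes and for limma-trend (limma 3.58.1) on log2(RPKM + 1) and log2(RPKM + 0.1). Other alternatives were DESeq2 size factors, library size alone, no filter, the DESeq2 1.42.0 Wald test, autosomal genes only, the replicate number as a block, and leaving out each library.

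On simulated counts for this comparison, over 20616 genes, 33 of 50 genes raised by 1 on the log2 scale and 48 of 50 raised by 2 were recovered. The simulation changed 47 to 50 genes per size and direction, far fewer than the 4285 higher and 4004 lower called in the data. These recovery shares may therefore not hold for the data. The markers and lists were chosen with earlier results of these data known. Named besides the markers were up to 4 called genes per pathway list with the smallest adjusted p, set ligands and partners, the first 3 markers and up to 2 called genes per cell type list, and the 2 nearest profiles per marker. Genes named as the lowest, highest or most abundant of a list, and Mesp1 and Fgf8, were chosen after their values were seen. Not every gene chosen by the rule is printed, and results for 2 of them are not reported here.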

Additional observations from a re-analysis of the deposited data

How the results depend on the processing

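The 7 markers had no change of direction under any of the 12 alternatives. Across these, the log2 fold change of Pdgfra lay between 1.65 and 2.58, of Pth1r between 2.32 and 4.01, of Stra6 between 0.69 and 3.40 and of Srgn between 2.61 and 3.84, and each was called in all 12. Plat was called in 6 of 12 (0.27 to 0.64), Thbd in 1 (0.00014 to 0.22) and Cxcr4 in 1 (-0.74 to -0.19). Leaving out each library in turn, 4 to 6 markers were higher and 0 to 1 lower, and over all genes 2805 to 5578 were higher and 2300 to 4899 lower, the fewest without a Smg6-deficient library, where 1 library remains and is assumed to vary like the other group. On RPKM values limma-trend called 2700 genes higher with a pseudocount of 1 and 2643 with 0.1, against 4285 by edgeR; the cause was not tested. The labels do not say that replicate numbers pair the libraries. With the replicate block, 5 markers were higher and 0 lower, as without it, and 5074 genes were higher and 4613 lower. The deviations of same-numbered libraries from their group means correlated at 0.155 across genes, which are not independent replicates.

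Of the named genes, those whose sign turned were not called in the main test. With each library left out in turn, Pdgfa ranged from -0.20 to 0.15 on the log2 scale, Pdgfb from -0.053 to 0.031, Tek from -0.050 to 0.34, Ptprc from -0.35 to 0.29 and Cd53, a blood marker, from -0.48 to 0.85. Ptprc also had 6.8e-05 by limma-trend with a pseudocount of 1 and 0.0043 with 0.1, and Cd53 had -0.011 with library size alone. Of the other changes among named genes, 66 were lost calls and 22 were gained. Among the markers the lowest counts were 93 and 67 for Stra6 in wild-type libraries and 109 to 179 for Cxcr4. Mesp1, Pthlh, Ptprc, Myl3, Ccdc33 and Hbb-bt were among the other genes with fewer than 67 in every library.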
